A study of Homo sapiens with 6 samples.

Results

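Intermediate filaments are the rope-like polymers of the cytoskeleton, and each cell type builds them from its own choice of subunits. Neurons combine the neurofilament light, medium and heavy chains with internexin alpha and peripherin, progenitor and mesenchymal cells use vimentin and nestin, and simple epithelia pair the keratins 8, 18 and 19. Neurofilament chains set the calibre of axons, whereas keratins work only as pairs of an acidic and a basic partner. The genes described here are NEFL, NEFM, NEFH, INA, PRPH, VIM, NES, KRT8, KRT18 and KRT19, of which 9 of 10 were matched by Ensembl identifier among the 20169 genes of the count table. NEFL was not matched and is not analysed here. The set was drawn up after the near loss of NEFM in the CAG line was known, so the differences between lines below describe the members, and the number of members past the threshold is printed only beside the share of all genes and supports nothing.

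The cells were HEK293T, a human embryonic kidney line that carries the SV40 large T antigen and is known to express some genes of neurons. Each line carries a landing pad, where a reporter gene can later be put into the genome, and the groups were the CAG landing pad line, whose promoter is a strong composite of viral and actin elements, and the PGK landing pad line, whose promoter comes from a glycolytic gene. Each line is monoclonal and is represented by 3 libraries of polyadenylated RNA, with no treatment named, so promoter and clone cannot be told apart in any value here. Separate cultures are not stated for the replicate libraries, so the p-values reflect only how far these samples scatter, which could be technical. Library totals ran from 22450538 to 23442542 counts in CAG and from 21896246 to 22889708 counts in PGK. LIN28B, a gene known to be expressed in HEK293 cells, was at 100.8 ± 6.67 CPM (read counts scaled by library size) in CAG and at 123.3 ± 8.25 CPM in PGK (SD, n = 3 each). CDH2, the N-cadherin of these cells, was at 127.4 ± 4.12 CPM in CAG and 111.1 ± 8.79 CPM in PGK, and the kidney factor PAX2 was low, at 1.27 CPM in CAG and 1.55 CPM in PGK. Of 6 markers of immune cells 4 were under 1 CPM in every library, and CD3E, a T cell gene, was at 0 counts in all of them.

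The lines differed in the proportions of their neuronal filament transcripts. NEFM was all but lost in the CAG line while INA was more than 4-fold higher there, VIM, NES and KRT8 were also higher, and KRT18, PRPH, NEFH and KRT19 showed no clear separation. In edgeR's quasi-likelihood fit over 13103 genes, 7 of the 9 matched members passed the filter on low counts, and NEFH and KRT19 did not. Of these 7, 4 were higher and 1 was lower at an adjusted p under 0.05, and the same 5 were those whose libraries did not overlap between lines. Over all tested genes 62.0% were called, 31.6% higher and 30.4% lower, and 65.5% had libraries that did not overlap, so nothing is read from the count of members.

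**Figure D1:**
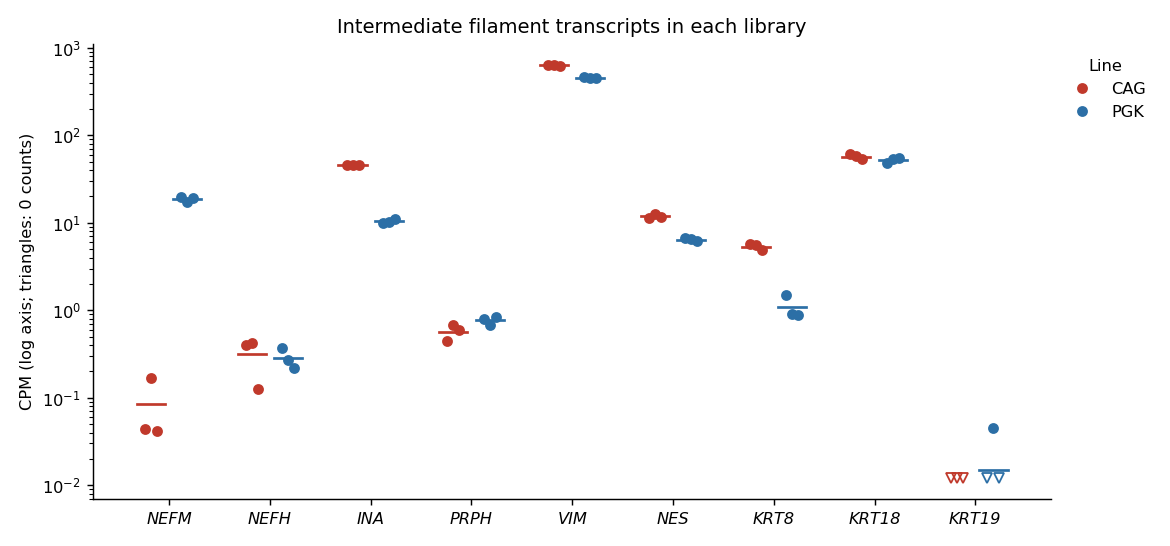
CPM of the 9 matched genes in each library on a log axis, with CAG left of PGK, points for libraries and bars for means; triangles mark 0 counts. NEFM lies below 0.2 CPM in CAG and above 17 CPM in PGK, whereas the libraries of KRT18, PRPH and NEFH overlap between lines.

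NEFM (ENSG00000104722, chromosome 8) encodes the neurofilament medium chain, which copolymerises with the light chain and carries long phosphorylated tails. It had 1, 4 and 1 counts in the CAG libraries, against 424, 387 and 438 counts in the PGK libraries. On the CPM scale this was 0.0853 ± 0.0729 in CAG and 18.8 ± 1.23 in PGK (SD, n = 3 each). Every CAG library was near the limit of detection, since 3 counts correspond to 0.126 to 0.133 CPM in CAG, and every PGK library was far above it. The ratio of CAG to PGK was 0.00457, with a 95% exact binomial counting interval of 0.00167 to 0.00997, an interval that covers counting error only. The fitted log2 fold change was -7.69 (SE 0.21), and 17 of the 13103 tested genes differed by more in either direction. The alternative fits gave -7.78 (SE 0.60) with DESeq2 and -7.66 (SE 0.40) with limma-voom. The SE therefore depends on the method, and 0.21 may be too small for a gene with 6 CAG counts. CAG replicate 2 held 4 of the 6 CAG counts, and without it the fitted value was -8.59. In bulk RNA, fewer cells that express a gene and less RNA per cell cannot be told apart.

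INA (ENSG00000148798, chromosome 10) encodes internexin alpha, a filament subunit of early neurons that can assemble alone or with the neurofilament chains. Its level was 46.3, 45.6 and 45.5 CPM in the CAG libraries, against 10.0, 10.3 and 11.1 CPM in the PGK libraries. The libraries of a line lay close together and those of CAG were all above those of PGK. The log2 fold change was 2.13 (SE 0.07), or 4.37-fold. Among all tested genes 2.32% were called with a difference of at least 4-fold, which NEFM, INA and KRT8 reached.

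NEFH (ENSG00000100285, chromosome 22), the heavy chain, was barely detected, with 9, 10 and 3 counts in the CAG libraries and 8, 6 and 5 counts in the PGK libraries. Its CAG to PGK ratio, 1.10, had a counting interval of 0.569 to 2.15, so no difference was detectable at this depth. PRPH (ENSG00000135406, chromosome 12), which encodes the peripherin of peripheral neurons, had 10, 16 and 14 counts in CAG and 17, 15 and 19 counts in PGK. The PRPH libraries overlapped between lines, and the ratio of 0.746 had a counting interval of 0.480 to 1.15.

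Levels of different genes were compared per kilobase of merged exons in GENCODE 29. In the CAG line INA made up 98.4 ± 0.453% of the summed level of NEFM, NEFH, INA and PRPH, against 41.7 ± 2.12% in the PGK line (SD, n = 3 each). NEFM supplied 0.135 ± 0.115% of that sum in CAG and 55.1 ± 1.84% in PGK. The sum itself was 14.4 ± 0.148 CPM per kb in CAG and 7.78 ± 0.345 CPM per kb in PGK, so it was higher in the line with almost no NEFM. NEFL, a main partner of NEFM in neurons, is missing from this sum.

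**Figure D2:**
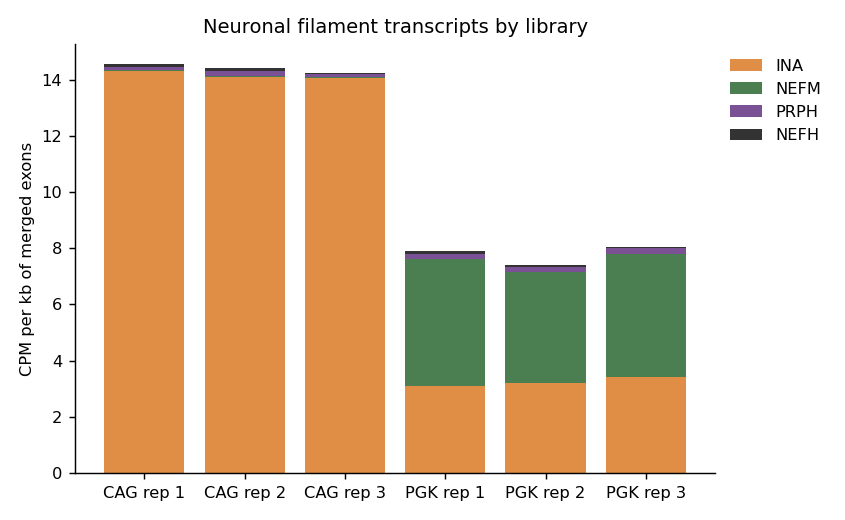
CPM per kilobase of merged exons of INA, NEFM, PRPH and NEFH, stacked for each library, with the CAG libraries left of the PGK libraries. Nearly the whole bar is INA in CAG, whereas NEFM is the larger segment in each PGK library.

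VIM (ENSG00000026025, chromosome 10) encodes vimentin, the filament of mesenchymal cells and of most cultured lines. It reached 642, 634 and 618 CPM in the CAG libraries, against 458, 452 and 456 CPM in the PGK libraries. The lines did not overlap, and the log2 fold change was 0.47 (SE 0.04), a 1.39-fold difference. NES (ENSG00000132688, chromosome 1) encodes nestin, a large subunit of progenitor cells that copolymerises with vimentin. Its libraries were at 11.4, 12.6 and 11.7 CPM in CAG and at 6.66, 6.52 and 6.13 CPM in PGK. That was a log2 fold change of 0.88 (SE 0.09), again with no overlap between lines. Markers of fibroblasts were summed over COL1A1, COL1A2, COL3A1, LUM, DCN, THY1 and PDGFRB. This sum was 29.8 to 31.2 CPM in the CAG libraries and 20.3 to 22.3 CPM in the PGK libraries. Of the 7 markers only COL1A1, COL3A1 and LUM passed the filter on low counts. These 3 were all higher, beside 31.6% of all tested genes. PDGFRB, not tested, had 34 counts in CAG and 16 counts in PGK. COL1A1 was at 0.20 (SE 0.07) on the log2 scale, COL3A1 at 2.02 (SE 0.15) and LUM at 1.91 (SE 0.32). The collagen gene COL1A1 supplied most of that sum, COL1A2 was at 0 counts in every library, and THY1 and DCN had at most 3 counts in any library. Markers of muscle, 6 in number, summed to 19.8 to 23.5 CPM in CAG and 15.3 to 17.9 CPM in PGK, with 1 higher and 1 lower, and MYOG, which defines muscle, was at 0 counts throughout. The part of these markers in the VIM and NES differences was not tested.

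KRT8 (ENSG00000170421, chromosome 12) encodes the basic and KRT18 (ENSG00000111057, chromosome 12) the acidic keratin of the pair that simple epithelia express first. KRT8 had 128, 130 and 116 counts in the CAG libraries, against 32, 20 and 20 counts in the PGK libraries. All CAG libraries were above all PGK libraries, at 5.35 ± 0.427 CPM against 1.09 ± 0.348 CPM (SD, n = 3 each), and the log2 fold change was 2.30 (SE 0.18). KRT18 was at 60.8, 57.4 and 53.0 CPM in the CAG libraries and at 48.8, 53.2 and 54.6 CPM in the PGK libraries. Its lines overlapped, and the log2 fold change was 0.13 (SE 0.06). Per kilobase, KRT8 stood at 4.38 ± 0.0966% of KRT18 in CAG and at 0.990 ± 0.381% in PGK, so the partners were far from equal in either line. Both values are uncertain, because the genes overlap on opposite strands in GENCODE 29 and no source used here says whether reads were counted by strand. GENCODE 29 also names 50 pseudogenes after KRT8 and 67 after KRT18, none of them a row of the count table, and how reads shared with such copies were handled is not stated either. KRT19 (ENSG00000171345, chromosome 17), an acidic keratin of ducts, had 0 counts in all CAG libraries and 1 count in PGK, in replicate 2, so both lines were under the floor of 3 counts per library.

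Markers of epithelium were summed over CDH1, EPCAM, KRT7, KRT5, KRT14 and MUC1. This sum was 6.23 to 7.43 CPM in the CAG libraries and 2.07 to 2.15 CPM in the PGK libraries. Of the 6 only CDH1, EPCAM and MUC1 passed the filter on low counts. CDH1 and EPCAM were higher, beside 31.6% of all tested genes, and MUC1 was not called, at -0.42 (SE 0.29) on the log2 scale. KRT5, a keratin of basal epithelium, was at 0 counts in every library, and KRT7 and KRT14 had at most 1 count in either line. The part of these markers in the KRT8 difference was not tested. Among 8 neuron markers the sum was 49.1 to 52.7 CPM in CAG and 59.6 to 64.7 CPM in PGK, with 1 higher, 2 lower and the other 5 under 1 CPM in every library. ELAVL3, ELAVL4, STMN2 and DCX were at or near 0 in both lines, and SYP, a synaptic vesicle protein, supplied most of the sum. RBFOX3 was lower, as SYP was, at 0.983 ± 0.162 CPM in CAG and 2.24 ± 0.241 CPM in PGK. SYT1 was higher, at 8.85 ± 0.400 CPM in CAG and 6.79 ± 0.620 CPM in PGK. The part of these markers in the NEFM and INA differences was not tested.

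Within each line the members spanned a wide range of levels per kilobase. VIM led with 122.4 ± 2.36 CPM per kb in CAG and 88.3 ± 0.609 in PGK, which was 77.7 ± 0.363% of all members in CAG and 77.7 ± 0.658% in PGK. KRT18 came next, at 17.7 ± 1.21 CPM per kb in CAG and 16.2 ± 0.945 in PGK. The third place went to INA in CAG, at 14.2 ± 0.138 CPM per kb, and to NEFM in PGK, at 4.29 ± 0.281, ahead of INA there at 3.24 ± 0.170. NES followed with 2.14 ± 0.119 in CAG and 1.16 ± 0.0490 in PGK, and the order of the next genes depended on the line. KRT8 was at 0.778 ± 0.0621 in CAG and 0.158 ± 0.0506 in PGK, above PRPH in CAG and below its mean in PGK. PRPH was at 0.131 ± 0.0272 in CAG and 0.176 ± 0.0189 in PGK, and NEFH at 0.0836 ± 0.0437 in CAG and 0.0759 ± 0.0207 in PGK. Libraries of PRPH and NEFH overlapped in CAG, as did those of NEFH and NEFM, and in PGK those of PRPH and KRT8 overlapped. With the longest transcript as the length, KRT8 lay above PRPH in PGK, at 0.380 against 0.236 CPM per kb.

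The nearest tested genes on the chromosome gave each member a local setting, taken as 5 on each side without other members. Over all tested genes 31.6% were higher and 30.4% lower. Around NEFM, 0 of 10 neighbours were higher, 3 were lower and 7 did not pass edgeR's test, and their median log2 fold change was -0.01. On one side lay SLC25A37, a mitochondrial iron carrier, at -0.25 (SE 0.07). On the other side DOCK5, an exchange factor for Rac, was at 0.13 (SE 0.08) and GNRH1, the gonadotropin-releasing hormone gene, at 0.51 (SE 0.33), neither of which passed. No neighbour approached the NEFM difference of -7.69.

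INA differed in direction from most of its neighbours. Of its 10 neighbours 6 were lower and 2 higher, with a median of -0.30. The Polycomb subunit PCGF6 was at -0.62 (SE 0.05), TAF5, a subunit of the general factor TFIID, at -0.47 (SE 0.06), the nucleotidase NT5C2 at -0.29 (SE 0.06) and the magnesium transporter gene CNNM2 at -0.31 (SE 0.06). AS3MT, an arsenic methyltransferase chosen after its value was seen, lay 3 genes away and was at 1.86 (SE 0.10). VIM, in contrast, lay among genes that were nearly all higher, with 9 of 10 called higher beside 31.6% of all tested genes. Their median was 0.62, above the 0.47 of VIM itself. Its nearest neighbours were TRDMT1, an RNA methyltransferase, at 0.70 (SE 0.10), CUBN, the cubilin receptor, at 1.10 (SE 0.36), HACD1, a fatty acid elongation enzyme, at 1.12 (SE 0.12), and STAM, an endosomal sorting protein, at 0.41 (SE 0.07).

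The neighbours of NES had 1 higher and 4 lower, with a median of -0.16 against 0.88 for NES. KRT8 and KRT18 share their neighbours, of which 2 were higher and 3 lower with a median of -0.15. The translation factor EIF4B next to them was at -0.25 (SE 0.05) and the autophagy gene ATG101 at -0.27 (SE 0.08). IGFBP6, an insulin-like growth factor binding protein chosen after its value was seen, was at 2.45 (SE 0.37) and under 1 CPM in either line. Around PRPH 6 were lower and 1 higher with a median of -0.17, around NEFH 2 were lower and 2 higher with a median of 0.0015, and around KRT19 2 were lower and 3 higher with a median of -0.0042. Over all tested genes the median was -0.0021, with 31.6% higher and 30.4% lower.

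**Figure D3:**
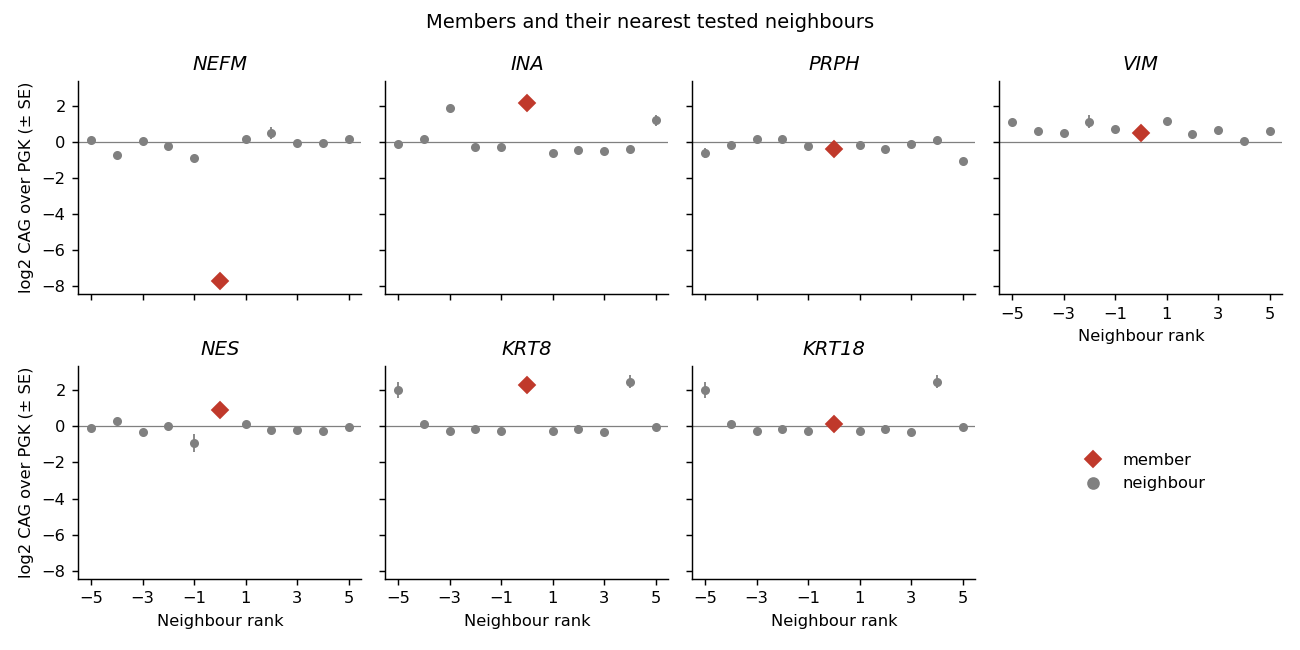
Log2 fold change of CAG over PGK with its SE for the 7 tested members (diamonds) and their 5 nearest tested neighbours on each side (points), by rank of distance along the chromosome. NEFM, INA, NES and KRT8 lie away from most of their neighbours, whereas VIM at 0.47 lies among neighbours with a median of 0.62.

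The genes whose pattern was most like that of NEFM were taken as the 5 with the smallest Euclidean distance between mean-centred log2 CPM profiles over the 6 libraries, of which 4 are described. SFRP2, a secreted Wnt antagonist, was nearest at a distance of 1.32 log2 units, with 0.0577 ± 0.0269 CPM in CAG and 10.2 ± 0.621 CPM in PGK (SD, n = 3 each). LTBR, the lymphotoxin beta receptor, followed at 1.44, with 0 counts in CAG and 5.04 ± 0.294 CPM in PGK, though it overlaps SCNN1A on the other strand and is uncertain. PSMD5, an assembly chaperone of the proteasome, was at 1.62, with 1 count in CAG and 4.63 ± 0.181 CPM in PGK. AFF2, a nuclear protein, was at 2.05, with 0.258 ± 0.153 CPM in CAG and 23.5 ± 1.78 CPM in PGK. These 4 genes lie, in the order given, on chromosomes 4, 12, 9 and X, so none is on the chromosome of NEFM. A profile over 6 libraries in 2 groups mostly records the difference between the lines.

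Genes that work with intermediate filaments were examined in 7 lists chosen by function. Of 176 listed genes 174 were measured and 98 were tested, of which 37 were higher, 23 were lower and 38 did not pass. That was 61.2% called beside the 62.0% of all tested genes, with a median of 0.07 beside -0.0021.

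Other filament proteins went in both directions. Of 8 tested genes 2 were higher and 3 lower, with a median of -0.02. SYNC, the muscle protein syncoilin, was higher at 2.04 ± 0.224 CPM in CAG and 0.946 ± 0.124 CPM in PGK, and SYNM, which encodes the vimentin and desmin partner synemin, at 15.3 ± 0.813 CPM in CAG and 10.5 ± 1.11 CPM in PGK (SD, n = 3 each). IFFO2, an intermediate filament family orphan, fell by 0.86 on the log2 scale, and the nuclear lamins LMNB2 and LMNB1 fell by 0.27 and 0.11. By edgeR's quasi-likelihood test their adjusted p ran from 5.65e-08 for IFFO2 to 0.0365 for LMNB1. The LMNB1 call was lost with library size scaling only, at -0.07, and without CAG replicate 1, 2 or 3 or PGK replicate 3. LMNA, the A-type lamin, did not pass, at -0.09 (SE 0.05).

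Keratins other than the members were almost silent. Of 52 such genes 38 had 0 counts in all 6 libraries and 2 were expressed enough to be tested. KRT10, an acidic keratin of skin, was at 26.0 ± 2.61 CPM in CAG and 26.4 ± 3.90 CPM in PGK and did not pass. KRT222, a keratin-related gene, had 5.97 ± 0.355 CPM in CAG and 0.807 ± 0.301 CPM in PGK, which is 2.87 (SE 0.19) on the log2 scale, with an adjusted p of 4.29e-10 in edgeR's quasi-likelihood test.

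The linkers that tie filaments to junctions, to the nucleus and to other polymers had 6 higher and 3 lower of 15 tested, with a median of -0.01. PLEC, which encodes the cross-linker plectin, was lower at 156.2 ± 7.84 CPM in CAG and 299.8 ± 19.5 CPM in PGK, or -0.94 (SE 0.05) on the log2 scale. The junction protein JUP fell by 0.32 and FAM83H, which acts on keratin organisation, fell by 0.21. PKP2, a plakophilin of desmosomes, rose by 0.46, and SYNE2 and SUN2, which bridge the nuclear envelope, rose by 0.29 and 0.23. Their adjusted p in edgeR's quasi-likelihood test ran from 5.06e-11 for PLEC to 0.0191 for SYNE2. SYNE2 overlapped between lines and lost its call with no low-count filter, at 0.28, and without CAG replicate 2 or 3 or PGK replicate 3. FAM83H lost its call without CAG replicate 1, at -0.17, and without PGK replicate 3, at -0.19. DSP, which encodes the desmosomal keratin anchor desmoplakin, did not pass, at 297.3 CPM in CAG and 283.6 CPM in PGK.

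Enzymes of filament phosphorylation and turnover had 6 higher and 4 lower of 19 tested, with a median of 0.07. TRIM2, a ubiquitin ligase known in mice to act on the neurofilament light chain, rose by 0.73 (SE 0.07), with 32.6 ± 2.39 CPM in CAG and 19.6 ± 1.37 CPM in PGK. GSK3A, a kinase, rose by 0.49 and PPP2R2A, a regulatory subunit of protein phosphatase PP2A, by 0.31. The kinase GSK3B fell by 0.24 and the mitotic kinase AURKB by 0.15. The adjusted p in edgeR's quasi-likelihood test ran from 9.48e-08 for TRIM2 to 0.0204 for AURKB. AURKB overlapped between lines and lost its call with library size scaling only, at -0.12, and without CAG replicate 2 or 3 or PGK replicate 3. CDK5, a kinase of neurofilament tails, did not pass, at -0.0047 (SE 0.05).

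The neuronal cytoskeleton went both ways, as INA and NEFM did. Of 26 tested genes 11 were higher and 7 lower, with a median of 0.14. KIF1A, a motor of synaptic vesicle precursors, was at 46.0 ± 1.59 CPM in CAG and 8.67 ± 0.321 CPM in PGK, or 2.41 (SE 0.07) on the log2 scale. UCHL1, an abundant neuronal ubiquitin hydrolase, was at 135.6 ± 7.75 CPM in CAG and 27.1 ± 0.798 CPM in PGK, and ANK2, an ankyrin, rose by 1.90 (SE 0.08). On the lower side BASP1, a growth cone protein, had 8.70 ± 0.862 CPM in CAG and 46.9 ± 2.59 CPM in PGK. DPYSL3, a collapsin response mediator, had 24.5 ± 0.843 CPM in CAG and 117.6 ± 6.09 CPM in PGK, and STMN3, a stathmin that destabilises microtubules, fell by 0.92. The adjusted p of these 6 genes in edgeR's quasi-likelihood test ran from 3.57e-16 for UCHL1 to 2.14e-10 for STMN3. MAP1B, a microtubule protein of axons, did not pass, at 59.7 CPM in CAG and 59.8 CPM in PGK.

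The repressor REST, which silences neuronal genes outside neurons, was higher by 0.41 (SE 0.06), at 49.0 ± 3.29 CPM in CAG and 36.9 ± 1.75 CPM in PGK. In its list of cofactors and neuronal transcription factors 5 of 14 tested genes were higher and 5 lower, with a median of 0.03. The corepressor SIN3A rose by 0.29 and the POU factor POU3F2 by 0.24. RCOR2, a partner of the demethylase KDM1A, fell by 1.09, the zinc finger factor INSM1 by 0.60 and KDM1A by 0.51. In edgeR's quasi-likelihood test the adjusted p ran from 1.24e-08 for KDM1A to 0.00748 for INSM1. POU3F2 lost its call without PGK replicate 3, at 0.15.

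Among genes that mark epithelial or mesenchymal cells 6 of 14 tested were higher and 1 lower, with a median of 0.14. CDH1, the adhesion protein E-cadherin, was at 4.82 ± 0.320 CPM in CAG and 1.17 ± 0.0675 CPM in PGK. EPCAM, an epithelial adhesion protein, had 78 counts in CAG and 2 counts in PGK, both in replicate 3, so that CAG stood at 37.1 times PGK (counting interval 9.93 to 312). Without PGK replicate 3, PGK had 0 counts of EPCAM. SPARC, a matrix protein of mesenchymal cells, rose by 1.27 (SE 0.09), and SNAI2, a repressor of epithelial genes, fell by 1.04 (SE 0.07). The adjusted p of these 4 genes in edgeR's quasi-likelihood test ran from 3.5e-10 for SNAI2 to 4.16e-07 for EPCAM. Called genes of this list with smaller changes were higher too. They were the epithelial OCLN at 0.57 (SE 0.07) and the mesenchymal ZEB2 at 0.30 (SE 0.07) and CDH2 at 0.20 (SE 0.06). ZEB1 and FN1, both mesenchymal, did not pass, at -0.08 (SE 0.08) and 0.08 (SE 0.07). SYNC, SYNE2, SUN2, REST, KRT10 and CDK5 overlap a gene on the other strand, and LMNB2, SUN2, GSK3A, KRT7 and MUC1 overlap one on the same strand, so their values are uncertain. Overlaps of the genes around the members were not examined.

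**Figure D4:**
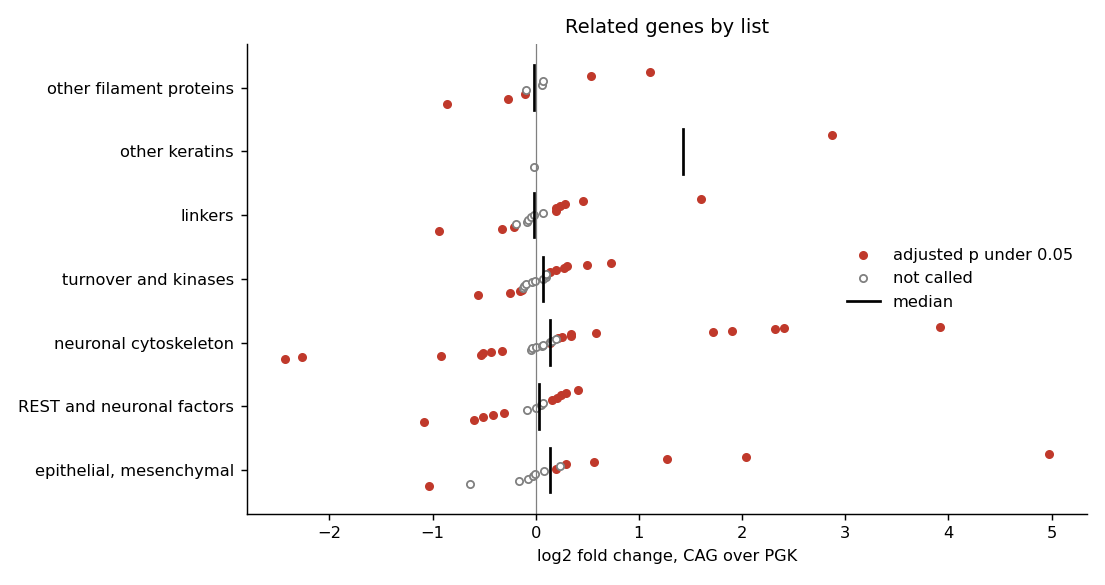
Log2 fold change of CAG over PGK for the tested genes of the 7 lists, filled where the adjusted p was under 0.05, with a black bar at each list's median. The neuronal cytoskeleton spreads from -2.43 to 3.91 and every list with more than 2 tested genes has a median between -0.02 and 0.14.

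The promoters of the members in the RefSeq table on GRCh38.p14 were compared by short motifs. Windows ran from 250 bases before to 50 bases after the gene start. That table held 5 of the 10 members: INA, VIM, NES and KRT8, which were higher in CAG, and PRPH, which was not called. GGGCGG, the core of the GC box bound by Sp1, was searched on both strands and occurs in 44.95% of 35116 such windows. It was found 4 times in INA, 4 times in NES and 1 time in VIM, and not in the windows of KRT8 and PRPH. TATAAA, the TATA box, occurs on either strand in 11.53% of windows and among the 5 was found in PRPH alone, whose libraries overlapped between the lines. CCAAT, also searched on both strands, occurs in 34.61% of windows and was found in none of the 5. Below, each match nearest to the gene start and before it is in capitals, within 30 bases, 5′ to 3′ on the gene's strand. CCGCCC is GGGCGG on the other strand.
INA, chr10:103277108-103277137, plus strand: ccttaaaagccgggcgcaCCGCCCcgccgc
VIM, chr10:17228183-17228212, plus strand: ccagagggacggGGGCGGggactctgcaag
NES, chr1:156677440-156677469, minus strand: ccgcccctcttcCCGCCCgcctggcgggag
PRPH, chr12:49295104-49295133, plus strand: agaccgcagggcTATAAAgccgcctcgcag
A match is a description of these letters and not a measured site of binding.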

How the data were processed

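RNA-seq was made from polyA-selected RNA of 3 CAG and 3 PGK landing pad libraries with a directional kit, per the labels' protocols. The authors deposited raw read counts for 20169 Ensembl genes, with replicates not pooled. The submitters' processing notes name hg19, featureCounts 2.0.3, HISAT2 2.2.1, Bowtie2 2.5.1 and cutadapt 4.6 without their roles; annotation, strand setting and treatment of multi-mapped reads are not given in the sources used. GENCODE 29 (GRCh38) gave symbols for 19346 rows, chromosome order, overlaps and lengths, and no coordinates; 823 rows had no symbol.

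Counts were filtered with filterByExpr, scaled by TMM and tested with edgeR's robust quasi-likelihood test (edgeR 4.0.16, limma 3.58.1, R 4.3.3; two-sided, Benjamini-Hochberg over 13103 genes, threshold 0.05). CPM uses the TMM-scaled library size; profiles used log2 CPM with a prior count of 2. All fold changes divide CAG by PGK, and the SE is the log2 value over the root of F. Alternatives were 2 filters, 2 scalings, DESeq2 1.42.0, limma-voom, a replicate block and each library left out. The fit was also run on simulated counts with a common dispersion for all genes, and no result here rests on that run.

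The members and lists were chosen with earlier results of these data known. OCLN, ZEB2 and CDH2 are named outside the rule that follows, to give every called gene of their list. Named genes were the members, up to 3 called genes per list and direction with the largest change and at least 1 CPM, the 2 nearest neighbours on each side, and the 5 genes most like NEFM; some neighbours are given in counts only, some genes that the rule names are not reported here, and genes named as not passing were picked for their roles.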

Additional observations from a re-analysis of the deposited data

How the results depend on the processing

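Under the 13 alternatives, 425 of 441 fitted log2 fold changes of 34 related genes taken by the naming rule kept their direction and their side of the threshold, 16 lost the call and 0 turned round. The members were chosen on these values, so their fitted log2 fold changes are given as a description: -8.59 to -7.37 for NEFM, 2.09 to 2.17 for INA, 0.45 to 0.50 for VIM, 0.84 to 0.92 for NES, 2.16 to 2.58 for KRT8, 0.08 to 0.18 for KRT18 and -0.56 to -0.28 for PRPH, which the stricter filter left out. KRT18, not called in the report, was past the threshold with library size scaling only, with the replicate block and without CAG replicate 3. The number of genes called was within 1.5 times of 4139 higher and 3986 lower in each alternative, with 3823 to 4086 higher and 3503 to 3956 lower when 1 library was left out. The replicate numbers were not taken to pair the libraries, since no label says that a number marks a shared day or culture. Same-numbered deviations correlated at 0.108, 0.103 and 0.013, and every library correlated best with its own number. With the block 4461 genes were higher and 4400 lower. Among the related genes 39 were then higher and 26 lower, beside 37 and 23 in the main fit. With the longest transcript as length, levels in CPM per kb were 4.67 for NEFM in PGK, 0.176 in CAG and 0.236 in PGK for PRPH, 237 in CAG and 171 in PGK for VIM, 1.87 in CAG and 0.380 in PGK for KRT8, and 27.3 in CAG and 25.0 in PGK for KRT18. Depth limits NEFH and PRPH, with 3 to 19 counts per library, KRT19, and NEFM in CAG. Replicate libraries differed by more than sampling noise (chi-square per degree of freedom of at least 3.31).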

Other observations

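Some genes related to the neuronal and muscle cytoskeleton fell outside the rule for named genes, and were picked after their values were seen. MAP2, a microtubule protein of dendrites, had 17, 20 and 16 counts in the CAG libraries and 1 count in each PGK library, a CAG to PGK ratio of 16.8 (95% exact binomial counting interval 5.45 to 84.1). DCLK1, a doublecortin-like kinase, was at 2.69 ± 0.142 CPM in CAG and 0.811 ± 0.115 CPM in PGK (SD, n = 3 each). DES, the muscle filament desmin, had 6, 7 and 10 counts in the CAG libraries and 1, 0 and 4 counts in the PGK libraries. GFAP, the filament of astrocytes, had 13, 8 and 7 counts in the CAG libraries and 2, 6 and 1 counts in the PGK libraries, and it overlaps CCDC103 and FAM187A on the other strand. DES and GFAP did not pass the filter on low counts and were not tested.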
